A study of Homo sapiens with 6 samples.

Results

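The genes of the eukaryotic translation initiation factors (symbols starting with EIF, the eIF2 kinases and the eIF4E-binding proteins included) and elongation factors (symbols starting with EEF) were compared between hypoxic and normoxic MM1S cells. Members were chosen by symbol alone, without pseudogenes, and had to be read by a probe set that carries that symbol and no other. This gave 63 of 19775 genes, read by 153 probe sets, and each gene was represented by its brightest probe set. Of these members, 59 encode proteins and 4 are non-coding transcripts named after a neighbouring factor gene. MM1S cells are a long-established human line derived from myeloma, the malignancy of antibody-secreting plasma cells, so all values come from a single line. In such bulk RNA, fewer cells and less RNA per cell cannot be told apart. Gene expression had been measured on 6 single-colour arrays, 3 of cells labelled normoxia and 3 of cells labelled hypoxia. The treatment text, a hypoxic exposure of 24 h, stands on all 6 samples, also on the normoxic ones. No oxygen level was found in the labels. The labels do not say whether the arrays of a group came from separate cultures, so p-values reflect the scatter among these 6 arrays alone, and that scatter may be technical.

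Initiation factors bring the small ribosomal subunit and the initiator tRNA to the cap of a messenger RNA, scan to the start codon and join the large subunit, and elongation factors then deliver aminoacyl-tRNAs and move the ribosome along. Cells adjust this machinery at a few points: the cap-binding protein eIF4E is held back by the 4E-binding proteins when mTOR is inactive, and phosphorylation of eIF2 by stress kinases blocks its exchange factor eIF2B. Plasma cells secrete large amounts of antibody and depend on high rates of protein synthesis. Transcript levels, which are measured here, show neither the phosphorylation of these proteins nor the rate of translation.

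The array medians were 54.95 to 60.13 intensity units, and pairs of arrays correlated across probe sets (Pearson, log2 values; probe sets are no replicates) at 0.988 to 0.993 within a group and at 0.962 to 0.968 between groups. All 9 plasma cell markers examined lay above the highest array median, with a summed intensity of 54816 to 56816 in normoxia and 53664 to 56153 in hypoxia. The marker sums were 215 to 278 and 216 to 283 for T cells (2 of 4 genes above the array median), 106 to 116 and 108 to 159.8 for monocytes and macrophages (1 of 4), 187 to 205 and 217 to 250.3 for epithelial cells (2 of 4) and 325 to 390.0 and 276 to 419 for fibroblasts (3 of 4). The haemoglobin gene HBB made up most of the erythroid sum, at 1751 ± 128 in normoxia and 1125 ± 27.7 in hypoxia, and its part in the results was not tested.

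More factor genes fell than rose in hypoxia. Of the 63 members, 27 (42.9%) fell, 11 (17.5%) rose and 25 did not pass a limma adjusted p of 0.05, against 20.6% falling, 16.9% rising and 37.4% changing in either direction among all genes tested. The median change of the members, as hypoxia minus normoxia in log2(intensity + 16), was -0.17, against -0.00016 over all genes. At least 2-fold falls were seen in 9 members and at least 2-fold rises in 0 (limma, 11 members rose by less). The share of all genes with changes of that size was not worked out, so these counts do not set the members apart. The arrays of the groups did not overlap for 48 of the 63 members, against 9471 of the 19775 genes tested (47.9%), a comparison not matched for brightness. Most members are bright, and bright genes were called more often: among genes with a mean log2 value of 9 to 11, 40.0% fell and 28.7% rose, against 9 and 4 of 20 members. Among genes of 11 to 13, 35.1% fell and 28.7% rose, against 11 and 4 of 20 members. Below 9, 12.7% fell and 11.6% rose, against 6 and 3 of 13 members. Above 13, where changes are small over all genes (median size 0.070 log2), 13.4% of genes fell and 9.41% rose, against 1 and 0 of 10 members. Read against genes of like brightness, the share of members that fell lay near the background between 9 and 11 and above 13. It lay above the background below 9 (6 of 13 against 12.7%) and between 11 and 13 (11 of 20 against 35.1%). These differences were not tested, and the results below concern which members moved. With the hypoxia array of replicate 0 left out the median change was -0.10, and with quantile normalization it was -0.095.

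**Figure D1:**
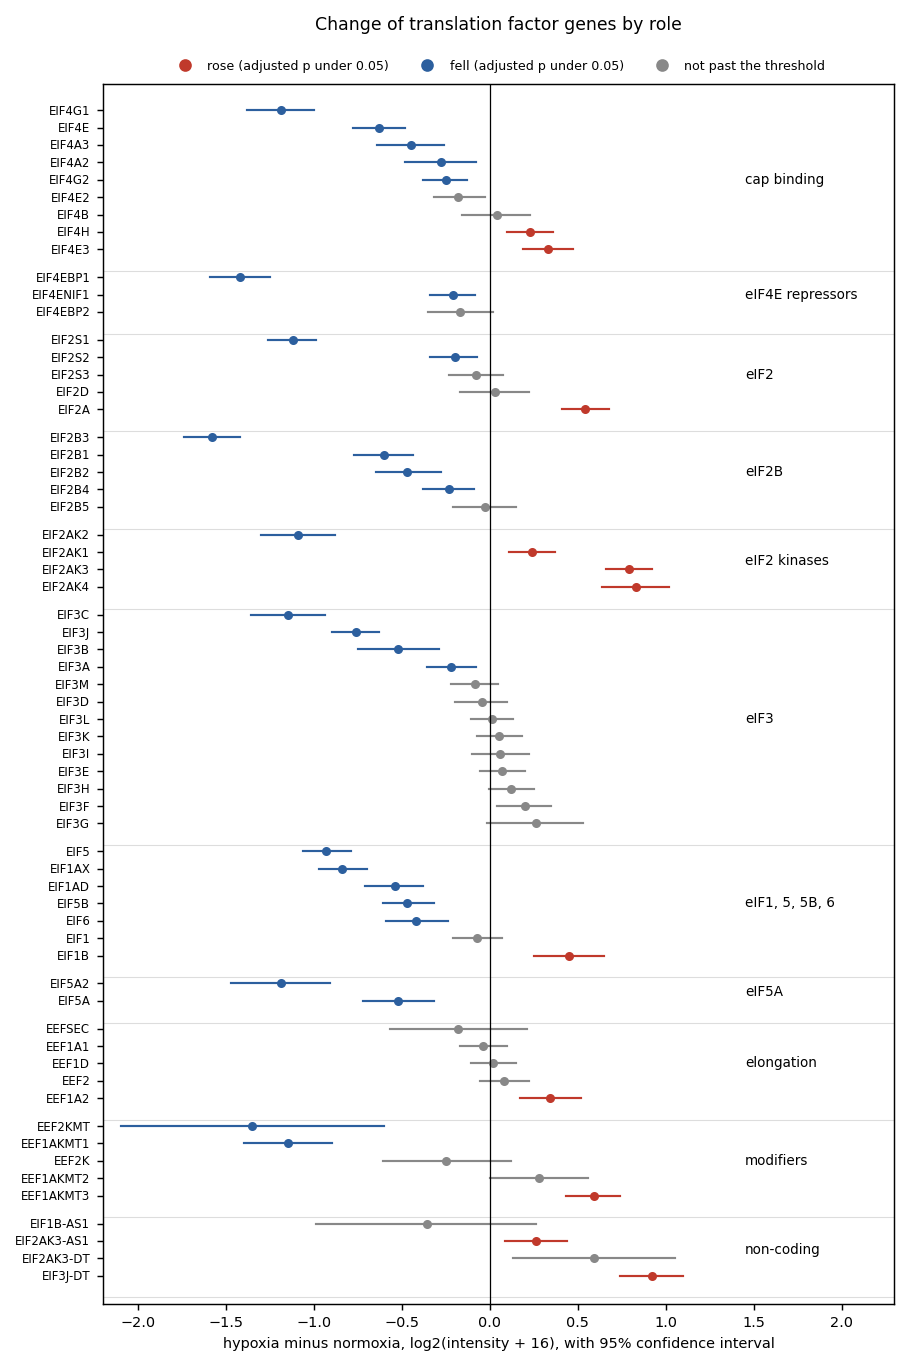
Change of each gene (hypoxia minus normoxia, log2(intensity + 16)) with its 95% confidence interval from limma, grouped by role; blue genes fell, red genes rose and grey genes did not pass. EIF1AY is not drawn. With this pseudocount falls reach -1.58 (EIF2B3) and rises 0.92 (EIF3J-DT), and 9 of the 13 eIF3 subunits lie between -0.086 and 0.26.

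Of the members that did not pass and have a listed start, 9 begin with a run of pyrimidines and 11 do not. Transcripts that begin with a C followed by a run of pyrimidines, the terminal oligopyrimidine or TOP motif, encode ribosomal proteins and several translation factors, and their translation is controlled through mTOR and LARP1. Promoter and start sequences from RefSeq (GRCh38.p14) were found by symbol for 50 of the 63 members, with 65 start sites; the others are EEF1A2, EEF1AKMT1, EEF1AKMT3, EEF1D, EEF2KMT, EIF2AK1, EIF2S2, EIF3A, EIF3E, EIF3G, EIF3H, EIF3L and EIF4EBP1. A start of C followed by at least 4 further bases that are all C or T was found at 11 of the 65 member starts (16.9%, exact 95% binomial interval 8.76% to 28.3%) and at 4.07% of all 35116 starts in the table. The interval treats the 65 starts as independent, though some genes have several. These 11 starts belong to 11 genes, and are shown with 10 bases before the start and 15 from it, the C and T run in capitals.
EEF1A1 (chr6:73521018-73521042, minus strand): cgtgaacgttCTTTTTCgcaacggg
EEF2 (chr19:3985449-3985473, minus strand): cgtcagcgttCTCTTCCgccgtcgt
EIF2A (chr3:150546777-150546801, plus strand): cgagcggtttCTCTTTCCgggacaa
EIF2D (chr1:206612451-206612475, minus strand): ccagccgggcCCTTTTCgcggccgg
EIF2S3 (chrX:24054946-24054970, plus strand): gatttccttcCTCTTTTggcaacat
EIF3D (chr22:36529152-36529176, minus strand): cgcatgtttcCTCTTTTCCTggttt
EIF3F (chr11:7987327-7987351, plus strand): cttccgcctcCTTCTTTCTCgacaa
EIF3K (chr19:38619178-38619202, plus strand): tttccaccacCTCTTCCTgttcccg
EIF3M (chr11:32583821-32583845, plus strand): gcccagttccCTTTTCCggtcggcg
EIF4A2 (chr3:186783567-186783591, plus strand): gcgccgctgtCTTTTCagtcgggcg
EIF4B (chr12:53006446-53006470, plus strand): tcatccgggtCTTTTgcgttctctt
The starts of some members that fell are shown for comparison, and have no such run at this position.
EIF2B3 (chr1:44986581-44986605, minus strand): gctgtcagtcagaggcggcgtggag
EIF2S1 (chr14:67360318-67360342, plus strand): gaggttccgcatgcgcggtggagtg
EIF1AX (chrX:20141824-20141848, minus strand): gagtcgcggcgccatttgctgccgc
EIF4E (chr4:98929119-98929143, minus strand): tggagcggttgtgcgatcagatcga
EIF3J (chr15:44537137-44537161, plus strand): ccgccgtgctaactcctcgctagct

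Among the 11 members with a pyrimidine start, 1 rose (EIF2A), 1 fell (EIF4A2, read here by a dim minor probe set) and 9 did not pass, with changes from -0.28 to 0.54 and a median of 0.029. Among the 39 members with another listed start, 7 rose, 21 fell and 11 did not pass, with a median of -0.25. This split was made after the changes had been seen, so it is a description and carries no test. The groups also differ in brightness, with a median log2 value of 12.60 for the first and 10.65 for the second. Restricted to members with a mean log2 value of at least 11, 1 of 9 rose and 0 fell with a pyrimidine start (limma), against 3 of 15 rising and 10 falling without one, with medians of 0.039 and -0.45. Over all genes in that brightness range, 16.8% of 226 genes with a pyrimidine start fell and 26.5% rose, against 36.4% and 26.7% of 1825 genes without one. Within this range the groups were still not matched for brightness. The median log2 values with and without such a start were 12.76 and 11.76 for members, and 12.21 and 11.69 for all genes. With a run of C and at least 6 further pyrimidines required, 9 members had such a start, 0 of them fell (limma) and the median was again 0.029. These counts rest on the brightest probe set. Of the 9 members, EIF3M fell with its probe sets averaged (-0.30, limma adjusted p = 0.0145) and EEF1A1 without _x_at probe sets (-0.22, limma adjusted p = 0.0457). Another probe set of EIF3F fell by 0.50, while its brightest passed upward under some alternative settings.

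**Figure D2:**
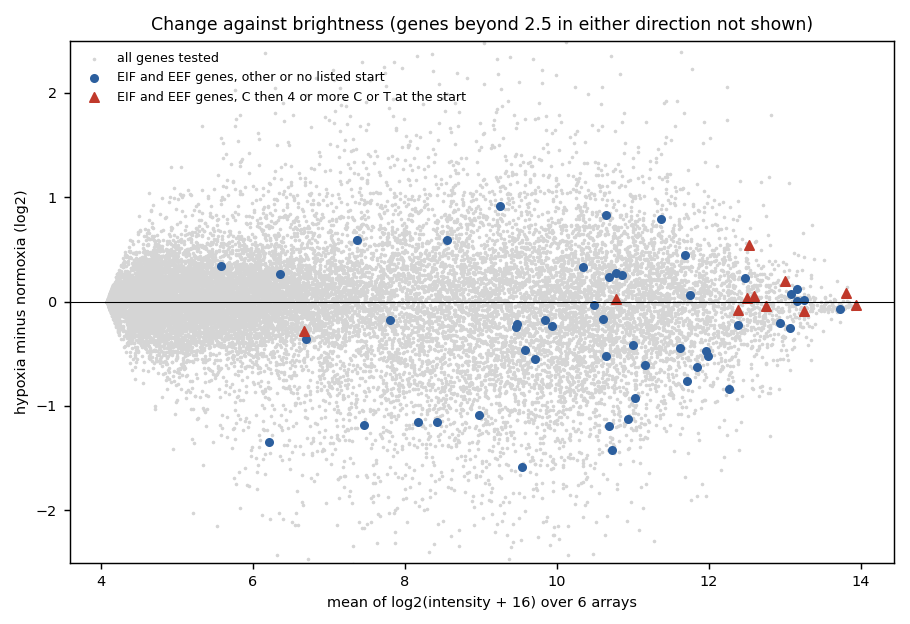
Change in hypoxia (log2) against the mean of log2(intensity + 16) over 6 arrays, for all genes tested (grey) and for the factor genes (blue circles, and red triangles where the listed transcript start is a C followed by at least 4 C or T). EIF1AY is not drawn. The triangles lie near 0, apart from EIF2A at 0.54, EIF3F at 0.20 and the dim EIF4A2 probe set at -0.28, and all but EIF4A2 and EIF2D are above a mean of 12.

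Counts by role, here and below, are to be read against 20.6% falling and 16.9% rising over all genes tested. At a mean log2 value of 9 to 13, where many members lie, 35.1% to 40.0% of genes fell and 28.7% rose. Of 9 measured members that bind the cap and prepare the messenger RNA, 5 fell (55.6%), 2 rose (22.2%) and 2 did not pass. Their median change was -0.25. EIF4G1, the scaffold that links the cap-binding protein to the ribosome, was at 2312, 2621 and 2486 in normoxia and at 1019.5, 1145 and 1066 in hypoxia. The arrays did not overlap, and the fall was 1.19 on the log2 scale (SE 0.077, limma adjusted p = 1.25e-04). Its other probe set fell by 1.25. EIF4E, the cap-binding protein itself, was at 4386, 4730.4 and 4528 in normoxia and at 2839, 2965 and 3003 in hypoxia. It fell by 0.63 (95% confidence interval -0.78 to -0.48, limma adjusted p = 4.71e-04), with no overlap of the groups, and 3 of its 4 other probe sets fell too. EIF4A3, an RNA helicase of the exon junction complex, fell from 3681 ± 163 to 2696 ± 201 (log2 change -0.45, limma adjusted p = 0.00551).

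Relatives of these factors did not all move with them. EIF4E3, another cap-binding protein of the family, was at 1191, 1095 and 1151 in normoxia and at 1440.5, 1439.6 and 1451 in hypoxia, a rise of 0.33 (95% confidence interval 0.19 to 0.47, limma adjusted p = 0.00560). EIF4E2, a cap-binding protein described in hypoxic translation and in repression, was at 959 ± 21.0 and 848 ± 38.6 (log2 change -0.18, limma adjusted p = 0.0690). The groups did not overlap for EIF4E2, and it passed downward with dim genes left out, an intensity trend or a pseudocount of 64 (limma adjusted p = 0.0172, 0.0263 and 0.0384). EIF4G2, a scaffold relative that does not bind eIF4E, fell by 0.25, from 9340.3 ± 167 to 7834 ± 72.7 (limma adjusted p = 0.0104), and did not pass when its probe sets were averaged. The within-array log2 difference of EIF4G1 minus EIF4G2 went from -1.91 ± 0.12 to -2.85 ± 0.093 (exact two-sided permutation test, p = 0.1, the smallest that 3 against 3 arrays allow). This pair and those below were chosen after the values were seen, so their separation lay in the choice and the tests add no evidence. EIF4H, which stimulates the eIF4A helicase, was at 5237 ± 100.4 and 6134 ± 69.1, a rise by 0.23 (limma adjusted p = 0.0162), a call lost without the hypoxia array of replicate 2. EIF4B, with a similar role, was at 5729 ± 441 and 5881 ± 290.4. The single-symbol probe set of EIF4A2 was dim, at 96.9 ± 4.93 and 77.1 ± 7.84, and its fall of 0.28 (limma adjusted p = 0.0404) was lost with an intensity trend and without any 1 of 5 arrays, all but the hypoxia array of replicate 1.

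EIF4EBP1, the 4E-binding protein that competes with the scaffold for eIF4E, fell by more than 2-fold. It was at 2853, 2595 and 2844 in normoxia and at 1083, 994 and 996 in hypoxia. The lowest normoxic array lay far above the highest hypoxic one, and the change was -1.42 (95% confidence interval -1.59 to -1.25, limma adjusted p = 6.05e-05), from 1 probe set. EIF4EBP2, its paralogue, was at 1729, 1622 and 1554 in normoxia and at 1352, 1531 and 1481 in hypoxia. The groups did not overlap, but the change of -0.17 did not pass (limma adjusted p = 0.149), while 2 dimmer probe sets of EIF4EBP2 fell, by 0.96 and 0.53, and the average of all fell by 0.33 (limma adjusted p = 0.00516). EIF4ENIF1, which carries eIF4E into the nucleus, was at 749 ± 8.35 and 646 ± 11.3 (log2 change -0.21, limma adjusted p = 0.0214). The call of EIF4ENIF1 was lost with quantile normalization and without any 1 of 5 arrays (all but the hypoxia array of replicate 0), and its direction turned when its probe sets were averaged. Within arrays, EIF4EBP1 minus EIF4E went from -0.72 ± 0.13 to -1.51 ± 0.11 in log2, a difference of -0.79 (exact two-sided permutation test, p = 0.1, the smallest possible).

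**Figure D3:**
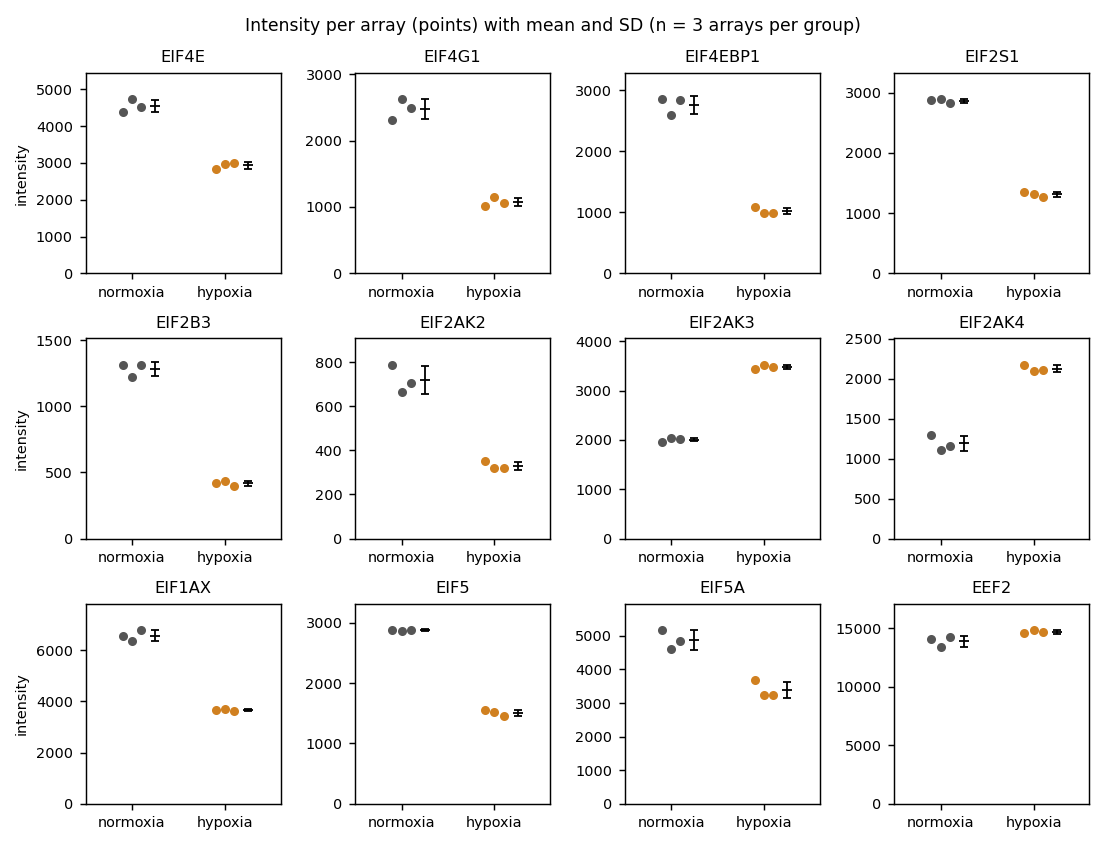
Intensity of 12 factor genes on each array (points; linear axes from 0), with the mean and SD of 3 arrays per group beside the points. The groups do not overlap for any of these genes; EIF2AK3 and EIF2AK4 are higher in hypoxia, EEF2 differs little (13917 to 14703), and the other 9 are lower.

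Of 5 measured members that deliver the initiator tRNA, as eIF2 does, 2 fell (40.0%), 1 rose (20.0%) and 2 did not pass. Among genes of like brightness 35.1% to 40.0% fell, so the share that fell is near the background. EIF2S1, the alpha subunit that the stress kinases phosphorylate, was at 2885, 2890.5 and 2833 in normoxia and at 1355, 1314 and 1263 in hypoxia. This is a fall of 1.12 with no overlap (95% confidence interval -1.26 to -0.99, limma adjusted p = 6.05e-05), and both its other probe sets fell. EIF2S2, the beta subunit, was at 8441 ± 153 and 7329.7 ± 182 (log2 change -0.20, limma adjusted p = 0.0284), a call lost with quantile normalization and without any 1 of 5 arrays, all but the hypoxia array of replicate 0. With both its probe sets averaged EIF2S2 fell by 1.22 (limma adjusted p = 4.26e-05), since the dimmer one fell by 2.23, so the size of its change depends on the probe set. EIF2S3, the GTP-binding gamma subunit, was at 5469.6 ± 193 and 5186 ± 219.7 and did not pass. EIF2S1 minus EIF2S3 within arrays went from -0.93 ± 0.065 to -1.97 ± 0.11 (exact two-sided permutation test, p = 0.1, the smallest possible). EIF2A, a separate protein that can deliver initiator tRNA without eIF2, was at 4709, 5013 and 4884 in normoxia and at 7081, 7024 and 7193 in hypoxia. It was the one member of this role that rose, by 0.54 (95% confidence interval 0.41 to 0.68, limma adjusted p = 5.93e-04). EIF2D, which acts in reinitiation and recycling, was at 1729 ± 94.8 and 1766 ± 127.

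The exchange factor eIF2B, which reloads eIF2 with GTP, had 4 of its 5 subunits fall (80.0%) and 1 not pass, with a median of -0.47. Among all genes with a mean log2 value of 9 to 13, 35.1% to 40.0% fell. EIF2B3, the gamma subunit, fell most among these subunits, at 1310.1, 1222 and 1315 in normoxia and at 421, 437 and 396 in hypoxia. The hypoxic arrays were all under the normoxic ones, and the change was -1.58 (95% confidence interval -1.74 to -1.42, limma adjusted p = 4.07e-05). EIF2B1 and EIF2B2, the alpha and beta subunits, fell by 0.60 (limma adjusted p = 9.35e-04) and 0.47 (limma adjusted p = 0.00434). EIF2B4, the delta subunit, fell by 0.23 (limma adjusted p = 0.0242), a call lost without the normoxia array of replicate 1 or 2 or the hypoxia array of replicate 0 or 2 and with quantile normalization. EIF2B5, the catalytic epsilon subunit, was at 1392, 1426 and 1487 in normoxia and at 1349, 1525 and 1352 in hypoxia, with overlapping groups, while its other probe set rose by 0.33. EIF2B3 minus EIF2B5 within arrays went from -0.16 ± 0.068 to -1.71 ± 0.063 (exact two-sided permutation test, p = 0.1, the smallest possible).

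The 4 kinases that phosphorylate eIF2 moved in both directions. EIF2AK4 (GCN2), which senses uncharged tRNA, was at 1302, 1112 and 1160.3 in normoxia and at 2179, 2095 and 2105 in hypoxia. It rose by 0.83 without overlap (95% confidence interval 0.64 to 1.02, limma adjusted p = 4.12e-04), and its other probe set by 1.41. EIF2AK3 (PERK), the kinase of endoplasmic reticulum stress, was at 1964, 2029 and 2024 in normoxia and at 3442, 3528 and 3468 in hypoxia. It rose by 0.79 (95% confidence interval 0.66 to 0.92, limma adjusted p = 1.30e-04), and the call went when its 2 probe sets were averaged, the other being at 24.6 and 20.1. EIF2AK2 (PKR), which responds to double-stranded RNA and is an interferon-induced gene, was at 789.6, 664 and 706 in normoxia and at 349.8, 318 and 321 in hypoxia. It fell by 1.09 (95% confidence interval -1.30 to -0.88, limma adjusted p = 2.34e-04), as did both its other probe sets. EIF2AK1 (HRI), the haem-regulated kinase, was at 1542, 1483 and 1489 in normoxia and at 1808, 1792 and 1737 in hypoxia, a rise of 0.24 (limma adjusted p = 0.0153). The call of EIF2AK1 was lost without the hypoxia array of replicate 1 or the normoxia array of replicate 1 or 2. Its dim other probe set fell from 98.8 ± 10.6 to 43.6 ± 9.65, and with the mean of both the direction turned. Within arrays, EIF2AK3 minus EIF2AK2 went from 1.46 ± 0.15 to 3.34 ± 0.087, and EIF2AK4 minus EIF2AK2 from 0.72 ± 0.013 to 2.63 ± 0.042 (exact two-sided permutation tests, p = 0.1 each, the smallest possible). In all, 7 such within-array pairs were compared, chosen after the values were seen, and the Benjamini-Hochberg adjusted p is 0.1 for each.

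Of 13 measured subunits of eIF3, the large scaffold on the small ribosomal subunit, 4 fell, 0 rose (limma) and 9 did not pass, with a median of 0.0099. The share that fell is 30.8%, against 20.6% of all genes, and the share called in either direction is 30.8%, against 37.4%. EIF3J, a loosely bound subunit, was at 4419, 4311 and 4428 in normoxia and at 2512, 2654 and 2559 in hypoxia. It fell by 0.76 with no overlap (95% confidence interval -0.90 to -0.63, limma adjusted p = 1.66e-04), and its other probe set by 0.64. EIF3B, a scaffold subunit, was at 2017, 1893 and 1812 in normoxia and at 1470.3, 1318 and 1192 in hypoxia (a fall of 0.52 in log2; interval at 95% confidence -0.75 to -0.29; limma adjusted p = 0.00658). Of its 5 other probe sets 2 fell, 1 rose (from 194 ± 2.34 to 296 ± 6.98) and 2 did not pass. EIF3A, the largest subunit, fell by 0.22 (limma adjusted p = 0.0266), a call lost without any 1 of 5 arrays, all but the normoxia array of replicate 1. With its probe sets averaged EIF3A fell by 0.63 (limma adjusted p = 4.23e-04), and a dimmer one fell by 1.37, from 778 ± 24.9 to 292 ± 20.1. EIF3C was read by a probe set at 447, 403 and 397 in normoxia and at 166, 196 and 174 in hypoxia (2.22-fold lower, limma adjusted p = 1.95e-04). Its other probe sets also carry the near-identical copy EIF3CL and were left out, so this value may not stand for the gene as a whole. The other 9 subunits (EIF3D, EIF3E, EIF3F, EIF3G, EIF3H, EIF3I, EIF3K, EIF3L and EIF3M) had changes between -0.086 and 0.26. EIF3F was at 0.20 (limma adjusted p = 0.0579) and EIF3H at 0.12 (limma adjusted p = 0.123), each with another probe set that fell, by 0.50 and 0.74. EIF3F passed upward with dim genes left out, an intensity trend, a pseudocount of 64, quantile normalization and without the hypoxia array of replicate 0 (0.19 to 0.26). EIF3H passed upward with dim genes left out, an intensity trend and quantile normalization (0.12 to 0.18), and downward with its probe sets averaged (-0.31, limma adjusted p = 0.0119). EIF3M, at -0.086, passed downward with an intensity trend and with its probe sets averaged (-0.30, limma adjusted p = 0.0145), and 1 of its 4 other probe sets fell by 1.27.

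Of 8 genes grouped by symbol under start site selection and subunit joining, 5 fell (62.5%), 1 rose (12.5%) and 2 did not pass. At a mean log2 value of 9 to 13, where most of them lie, 35.1% to 40.0% of all genes fell and 28.7% rose. EIF5, which triggers GTP hydrolysis by eIF2 at the start codon, was at 2883, 2858 and 2882 in normoxia and at 1548, 1516 and 1456 in hypoxia. The groups were far apart, with a fall of 0.93 (95% confidence interval -1.06 to -0.79, limma adjusted p = 9.11e-05), and all 4 other probe sets fell. EIF1AX, which helps scanning, was at 6548, 6360.4 and 6798 in normoxia and at 3676, 3699 and 3618 in hypoxia. It fell by 0.84 (95% confidence interval -0.97 to -0.70, limma adjusted p = 1.31e-04), and its 3 other probe sets fell by 1.09 to 1.77. EIF5B, the GTPase that joins the subunits, fell by 0.47 (limma adjusted p = 0.00153). EIF6, which keeps the large subunit apart until it is needed, fell by 0.42 (limma adjusted p = 0.00534). EIF1AD, placed in this group by its symbol alone, fell by 0.54 (limma adjusted p = 0.00135), and its other probe set did not pass (-0.21). EIF1, the guardian of start codon choice, was at 14407, 13550.0 and 13658 in normoxia and at 13444, 13227 and 12851 in hypoxia, and did not pass. Its paralogue EIF1B was at 3052, 2686 and 2714 in normoxia and at 4143, 3712 and 3699 in hypoxia. EIF1B rose by 0.45 without overlap (95% confidence interval 0.25 to 0.65, limma adjusted p = 0.00696), which no longer passed when its 2 probe sets were averaged, the other being at 9.11 and 10.9. EIF1AX minus EIF1B within arrays went from 1.22 ± 0.11 to -0.070 ± 0.090 (exact two-sided permutation test, p = 0.1, the smallest possible). The eighth member, the Y-linked EIF1AY, did not pass.

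Both genes of eIF5A, the factor that helps ribosomes through peptide bonds that form slowly and that carries the unusual amino acid hypusine, fell. EIF5A was at 5182, 4600.4 and 4835 in normoxia and at 3673, 3247 and 3248 in hypoxia (a fall of 0.52 in log2; interval at 95% confidence -0.72 to -0.32; limma adjusted p = 0.00346). EIF5A2 was at 267, 242 and 242 in normoxia and at 83.6, 111 and 110.1 in hypoxia (a fall of 1.19 in log2; interval at 95% confidence -1.47 to -0.91; limma adjusted p = 4.86e-04). For each gene both other probe sets fell as well.

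Of 5 measured elongation factors 0 fell (limma), 1 rose and 4 did not pass. Over all genes 20.6% fell and 16.9% rose, and above a mean log2 value of 13 the shares were 13.4% and 9.41%. The probe sets of EEF1A1 and EEF2 are near the highest intensity of an array (16277.2 to 17537.2), where genes in general showed little change, so these values do not show that the transcripts were stable. EEF1A1, which delivers aminoacyl-tRNAs, was at 16378, 15347 and 16186 in normoxia and at 15608, 15624 and 15448 in hypoxia, with overlapping groups and a change of -0.037 (interval at 95% confidence -0.17 to 0.099). Its bright probe sets share probes with similar sequences; without such probe sets a dimmer one gave -0.22 (limma adjusted p = 0.0457). EEF2, the translocase, was at 14060.5, 13387 and 14305 in normoxia and at 14573, 14886 and 14651 in hypoxia, a difference of 0.080 (interval at 95% confidence -0.057 to 0.22) that did not pass although the groups did not overlap. EEF1D, a subunit of the exchange factor of EEF1A, was at a log2 change of 0.020 and EEFSEC, the factor for selenocysteine, at -0.18. EEF1A2, the form of muscle and neurons, was at 26.6 ± 1.57 and 38.1 ± 3.45, below every array median, where signal cannot be told from background; its rise of 0.34 (limma adjusted p = 0.0119) was lost with an intensity trend.

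Of 5 enzymes that modify elongation factors, 2 fell (40.0%), 1 rose (20.0%) and 2 did not pass, against 20.6% falling and 16.9% rising over all genes. EEF1AKMT1, a lysine methyltransferase of EEF1A, was at 549, 470.4 and 467 in normoxia and at 192, 229.6 and 223 in hypoxia, a 2.22-fold fall with no overlap (limma adjusted p = 3.50e-04). EEF1AKMT3, another of these methyltransferases, was at 119 ± 3.45 in normoxia and at 187 ± 10.2 in hypoxia without overlap, a rise of 0.59 (95% confidence interval 0.43 to 0.74, limma adjusted p = 7.46e-04). EEF2KMT, the methyltransferase of EEF2, was dim, at 106 ± 33.4 and 32.6 ± 18.2, and its fall of 1.35 (limma adjusted p = 0.0162) was lost without the hypoxia array of replicate 1 or 2. With a pseudocount of 1 EEF2KMT was at -1.75, beyond EIF2B3 at -1.61, so the order of the largest falls depends on the pseudocount. EEF2K, the kinase that switches EEF2 off, was at 876, 698 and 692 in normoxia and at 755, 595 and 559 in hypoxia, with overlapping groups (-0.25 in log2, interval at 95% confidence -0.61 to 0.12, limma adjusted p = 0.270). Its other probe set fell from 676 ± 49.4 to 489 ± 25.7, with both averaged EEF2K fell by 0.35 (limma adjusted p = 0.00841), and with the replicate block its adjusted p in limma was 0.0326. EEF1AKMT2, also a methyltransferase of EEF1A, was at 1583 ± 179 and 1921 ± 179 and did not pass (limma adjusted p = 0.110; 0.0354 with the replicate block).

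Among the non-coding neighbours, EIF3J-DT, which starts 224 to 247 bases from EIF3J on the opposite strand, was at 464, 401 and 423 in normoxia and at 862, 818 and 799 in hypoxia. It rose by 0.92 (95% confidence interval 0.74 to 1.10, limma adjusted p = 2.68e-04), while EIF3J fell by 0.76, so the transcripts of this divergent pair moved in opposite directions. The sequence between their nearest starts is given because both transcripts leave from it; GRCh38.p14, capitals mark the only match to ACGTG or GCGTG on either strand, the core of the binding element of hypoxia-inducible factors.
EIF3J to EIF3J-DT (chr15:44536924-44537146, plus strand): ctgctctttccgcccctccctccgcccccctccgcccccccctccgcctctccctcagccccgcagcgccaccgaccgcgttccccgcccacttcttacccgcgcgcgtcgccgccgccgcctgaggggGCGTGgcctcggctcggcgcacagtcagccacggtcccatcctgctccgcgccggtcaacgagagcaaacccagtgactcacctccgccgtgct
EIF2AK3-DT, which starts 365 bases from EIF2AK3 on the opposite strand, was at 242, 280.4 and 365 in normoxia and at 366, 500.4 and 488 in hypoxia (log2 change 0.59, limma adjusted p = 0.0521; 0.0198 with the replicate block; it also passed with dim genes left out, an intensity trend, median centring, quantile normalization and a pseudocount of 64), beside a rise of 0.79 for EIF2AK3. EIF2AK3-AS1 was dim, at 58.9 ± 3.91 and 74.1 ± 5.16, and its rise of 0.26 (limma adjusted p = 0.0334) was lost with median centring, quantile normalization, an intensity trend and without any 1 of 4 arrays (hypoxia 0 or 2, normoxia 1 or 2). EIF1B-AS1, whose start lies 9 bases from that of EIF1B, was at 103 ± 22.8 and 79.0 ± 31.6 and did not pass; without the hypoxia array of replicate 2 it passed, at -0.62 (limma adjusted p = 0.0462).

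Promoters of the members were searched for the letters of known binding elements. CACGTG, the E-box core bound by MYC and MAX, was found in 14 of 65 member promoters (21.5%, exact 95% binomial interval 12.3% to 33.5%, 250 bases before to 50 after the start) and in 7.26% of all promoters. The interval treats the 65 promoters as independent, though they come from 50 genes and some overlap, so it may be too narrow. EIF1B and EIF1B-AS1, whose starts lie 9 bases apart, are both counted. CACGTG is the same on both strands, and it contains ACGTG. Of the 14 members with it, 6 fell, 2 rose and 6 did not pass (median -0.30), and of the 36 without it 16 fell, 6 rose and 14 did not pass (median -0.13). Over all genes, 30.5% of 1672 with CACGTG fell and 18.4% rose, against 20.9% and 17.3% of 13712 without it. Genes with CACGTG were also brighter, with a median log2 value of 8.48 against 7.21. Brighter genes were called more often, and these shares are not matched for brightness. ACGTG or GCGTG on either strand was found in 52 of 65 member promoters (80.0%) and in 48.4% of all. Of the 43 members with it 19 fell and 7 rose, and of the 7 without it 3 fell and 1 rose. Over all genes, 25.4% of 9581 with it fell and 19.0% rose, against 16.2% and 14.9% of 5803 without it. The genes without it were dimmer, with a median log2 value of 6.23 against 8.17. The 250 bases before the start are shown for 3 genes that fell and hold CACGTG there (capitals; GRCh38.p14), which occurs 2 times before EIF4E, 1 time before EIF2B3 and 2 times before EIF5A2.
EIF4E (chr4:98929134-98929383, minus strand): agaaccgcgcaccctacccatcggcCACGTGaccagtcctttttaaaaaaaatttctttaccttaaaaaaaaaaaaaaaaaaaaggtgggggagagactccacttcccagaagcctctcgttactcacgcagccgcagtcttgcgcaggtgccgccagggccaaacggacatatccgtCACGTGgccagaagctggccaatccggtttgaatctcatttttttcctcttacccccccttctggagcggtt
EIF2B3 (chr1:44986596-44986845, minus strand): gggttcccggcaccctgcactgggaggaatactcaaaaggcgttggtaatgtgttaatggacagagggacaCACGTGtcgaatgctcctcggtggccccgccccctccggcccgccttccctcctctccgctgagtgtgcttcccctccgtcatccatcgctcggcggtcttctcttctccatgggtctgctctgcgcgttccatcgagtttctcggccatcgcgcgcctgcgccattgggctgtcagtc
EIF5A2 (chr3:170908638-170908887, minus strand): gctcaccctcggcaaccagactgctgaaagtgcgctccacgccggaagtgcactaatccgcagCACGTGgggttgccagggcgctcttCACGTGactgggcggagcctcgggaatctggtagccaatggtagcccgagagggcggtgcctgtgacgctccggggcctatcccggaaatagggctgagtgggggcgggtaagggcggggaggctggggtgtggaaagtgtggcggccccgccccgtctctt

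Probe sets of a gene did not always move alike. Of 38 members called by their brightest probe set, 22 have others, and in 16 of these at least 1 other passed in the same direction, while in 2 (EIF2AK1 and EIF3B) another passed in the opposite direction. Of all 153 probe sets, 62 fell and 16 rose in limma, adjusted over all 41091 single-symbol probe sets, of which 18.0% fell and 15.8% rose. Several genes near 0 by their brightest probe set had a dimmer one that fell: EIF2S2 at -2.23 (from 525 ± 35.7 to 99.4 ± 8.30) beside -0.20, EIF3A at -1.37 beside -0.22, EIF3M at -1.27 beside -0.086 and EIF3H at -0.74 beside 0.12. Over the 73 other probe sets of members above the highest array median, 10 (13.7%) changed by at least 0.5 less than the brightest one and 3 (4.11%) by at least 0.5 more, against 14.9% and 14.2% of 10353 over all genes.

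**Figure D4:**
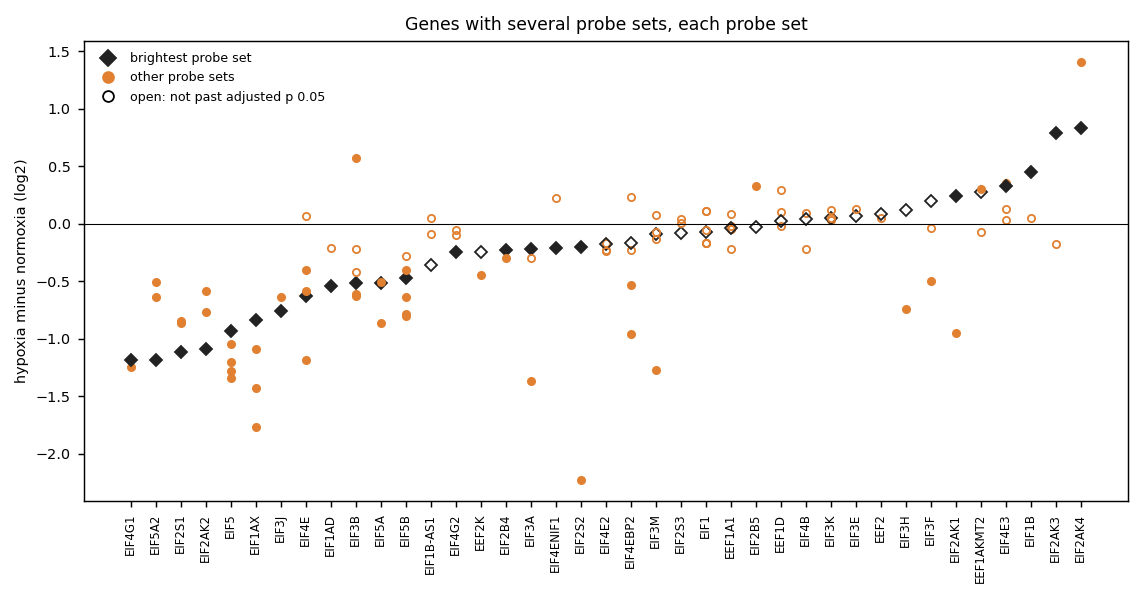
Change in hypoxia (log2(intensity + 16)) of every probe set of the 39 drawn factor genes that have several, ordered by the brightest probe set (black diamonds; other probe sets orange; open symbols did not pass an adjusted p of 0.05 in limma over all single-symbol probe sets). Orange points lie furthest below their diamond for EIF2S2 (-2.23 beside -0.20), EIF3M (-1.27 beside -0.086) and EIF2AK1 (-0.95 beside 0.24). EIF1AY is not drawn.

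Partner genes of these factors are given by list, to be read against 16.9% rising and 20.6% falling over all genes and, at a mean log2 value of 9 to 13 where many of them lie, 28.7% rising and 35.1% to 40.0% falling. Of 17 genes from mTOR complex 1 to eIF4E, 4 rose (23.5%), 5 fell (29.4%) and 8 did not pass (median -0.071), shares near that background. LARP4, a poly(A)-RNA binding protein, fell from 3229.6 ± 106 to 950.4 ± 53.5 and MLST8, an mTOR complex subunit, from 807 ± 23.1 to 405 ± 55.4. MKNK2, a kinase that phosphorylates eIF4E, rose from 5713 ± 191 to 12593 ± 242, and PDCD4, an inhibitor of the eIF4A helicase, from 61.2 ± 9.26 to 203 ± 13.3. PDCD4 was read by a single dim probe set, whose normoxic values lay near the array medians, where signal and background look alike. Of 16 genes around eIF2 phosphorylation, 3 rose (18.8%), 6 fell (37.5%) and 7 did not pass (median -0.12), also near it. IMPACT, an inhibitor of GCN2, fell by 0.79, TRIB3 by 0.58, the chaperone gene HSPA5 by 0.56 and ATF4, the transcription factor translated when eIF2 is phosphorylated, by 0.37.

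Enzymes that modify eIF5A, EEF1A and EEF2 or serve selenocysteine synthesis fell in 11 of 14 cases (78.6%), with 2 rising and a median of -0.47. DPH2, an enzyme of diphthamide synthesis on EEF2, fell by 1.86, from 898 ± 51.9 to 235 ± 8.51 (limma adjusted p = 3.22e-05), and DPH3 and DPH5 of the same pathway fell by 0.60 and 0.48. SEPHS2, which makes selenophosphate, fell by 0.82. Those that rose, named after their values were seen, were DHPS (0.47), the first enzyme of hypusine synthesis, and DPH7 (0.30), while DOHH, the second enzyme of hypusine synthesis, named likewise, fell by 0.65.

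Of 8 genes of release and ribosome rescue, 4 fell, 0 rose (limma) and 4 did not pass (median -0.28). The release factor genes ETF1, GSPT2 and GSPT1 fell by 1.21, 0.75 and 0.43, and ZNF598, a ubiquitin ligase that detects collided ribosomes, by 1.16. Of 10 measured poly(A)-binding and scanning helpers, 5 fell and 3 rose (median -0.11). ABCE1, which splits ribosomes for recycling, fell by 1.12 and the helicase gene DHX29 by 0.44, while PAIP2 and PAIP2B, inhibitors of poly(A)-binding protein, rose by 0.54 and 1.01. Of 9 mitochondrial translation factors, 4 fell (44.4%), 1 rose (11.1%) and 4 did not pass (median -0.020). TSFM and GFM1, mitochondrial elongation factors, fell by 1.33 and 1.07 and the release factor gene MTRF1L by 0.58, and the initiation factor gene MTIF3 rose by 0.40. Adjusted p-values in limma of the genes named by rule from these partner lists were at most 0.00428.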

How the data were processed

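Arrays of MM1S RNA numbered 6, 3 per group, with groups and replicate numbers (0 to 2) from the titles. Per the labels' protocols, RNA was isolated with the RNeasy kit and made into biotinylated cRNA. The deposited table gives 1 linear intensity per probe set; the authors' background correction, summary and scaling are not given in the sources used here. Of 54613 probe sets, 41091 carried 1 symbol in the platform annotation (symbols updated through RefSeq for 41037), 1801 several and 11721 none here; only the first were used, which gave 19775 genes. EEF1B2, EEF1G, EIF3CL, EIF4A1, EIF4EBP3 and EEF1E1-BLOC1S5 were carried only together with other symbols and were not analysed here. Where a gene had several probe sets, the brightest over the 6 arrays stood for it. No filter on dim genes was applied.

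Intensities were turned into log2(intensity + 16), a scale that understates changes of dim genes, and the groups were compared by limma 3.58.1 (lmFit, eBayes; R 4.3.3) without covariates. Two-sided p-values were adjusted by Benjamini-Hochberg over the 19775 genes, with a threshold of 0.05. Without detection calls, dim signal and background look alike, and precision is limited by having 6 arrays. Levels are mean ± SD (n = 3 arrays). Tested on simulated data with 50 genes changed per size among 19775, the procedure found 7 of those set to 0.3 (log2), 36 of those set to 0.5, 48 of those set to 1 and 49 of those set to 2; 13 of its 153 calls were false. The members, the role and partner lists and the motifs were chosen with earlier results of these data known, and the pyrimidine start after the changes were seen. Values per array are given for up to 4 members of each role with the smallest adjusted p and for genes set in the design, and up to 4 genes of each partner list are named. Alternatives were another pseudocount (1 or 64), a filter on dim genes (mean log2 of at least 7), the mean of probe sets, no _x_at probe sets, median centring, quantile normalization, an intensity trend, the replicate block and leaving out each array.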

Additional observations from a re-analysis of the deposited data

How the results depend on the processing

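The counts of members that rose (9 to 13, main 11) and fell (22 to 30, main 27) stayed within 1.5 times the main counts under all alternatives run. The median change of members stayed negative; it was -0.095 with quantile normalization, and -0.19 to -0.10 when 1 array was left out, the latter without the hypoxia array of replicate 0. The cause was not tested. With the replicate block 13 members rose and 28 fell, and all 38 called members kept their call; EEF1AKMT2, EEF2K and EIF2AK3-DT passed in addition. Replicate numbers were not treated as pairs in the main comparison. Deviations from the group means correlated at 0.24, 0.01 and 0.21 for equal numbers and at -0.25 to 0.11 for unequal ones. Hypoxia replicate 1 was closest to normoxia replicate 2 (0.11), while hypoxia replicates 0 and 2 were closest to the normoxia array of their own number. Whether equal numbers share a culture or a batch was not tested. Of the 38 calls, 37 of 37 tested were kept without _x_at probe sets, 38 with either pseudocount, 34 of 34 with dim genes left out, 37 with median centring, 35 with an intensity trend, 34 with quantile normalization, 33 with the mean of probe sets and 30 to 34 without 1 array. With the mean of probe sets, EIF2AK1 was at -0.36 (limma adjusted p = 0.0134) and EIF4ENIF1 at 0.0035 (limma adjusted p = 0.981), both turned in direction; their other probe sets were dim, at 98.8 and 43.6 (EIF2AK1) and at 2.03 and 5.12 (EIF4ENIF1). Motif shares in only the bases before the start were 20.0% for CACGTG and 70.8% for ACGTG or GCGTG.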
